A study of Mus musculus with 35 samples.

Results

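Huntingtin and 6 of its protein partners were followed at the transcript level in the striatum of mice carrying a Huntington's disease mutation. The 7 genes were taken by name from a table of 22099 genes: the huntingtin gene Htt, listed there under its older symbol Hdh, and Hap1, Hip1, Hip1r, Zdhhc17, Sh3gl3 and Rasd2. All 7 were among the 17639 genes with enough reads to be tested. Striatal RNA was sequenced from 35 female C57BL6/J mice aged 299 to 304 days. Heterozygous B6.Htt Q111/+ knock-in mice, which have a CAG expansion in 1 copy of their own Htt gene, were set beside Htt +/+ mice, which have none. From 2 to 10 months of age each mouse had a weekly injection of saline (4 µL per g), of a control antisense oligonucleotide (ASO), or of an ASO against Htt (both at 50 mg per kg). Injected ASOs act mainly in organs such as the liver and cross poorly into the brain. Each group held 6 mice, except the +/+ control ASO group with 5. The tissue was the right hemistriatum, apart from 1 left hemistriatum in the +/+ Htt ASO group.

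Huntingtin is a large scaffold protein found in most cells. Its first exon encodes the glutamine tract that is lengthened in Huntington's disease, and the medium spiny neurons of the striatum are the cells most affected. HAP1 and HIP1 were found as proteins that bind huntingtin: HAP1 connects it to the dynein and kinesin motors that carry vesicles along microtubules, while HIP1 and its relative HIP1R link clathrin-coated pits to the actin cytoskeleton. ZDHHC17, also called HIP14, attaches palmitate to huntingtin and other neuronal proteins. SH3GL3 (endophilin A3) binds the proline-rich stretch behind the glutamine tract and acts in endocytosis. RASD2, known as Rhes, is a small GTP-binding protein enriched in the striatum that binds mutant huntingtin and promotes its SUMO modification.

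The reference sequence around the glutamine tract is shown because it is the part of the gene that differs by design between the genotypes. It reads, 5′ to 3′ on the plus strand of GRCm38 (chr5:34761934-34762002, within exon 1 of 67), with the glutamine codons in capitals:
Htt: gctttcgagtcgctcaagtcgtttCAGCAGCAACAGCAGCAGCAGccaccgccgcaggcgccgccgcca
The mouse tract has 7 glutamine codons, 6 of them CAG and 1 CAA, and begins at codon 18. Its 21 bases make up 0.159% of the 13215-base transcript. The deposited values give 1 number per gene, so the normal and the expanded allele of the Q111/+ mice were measured together.

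Htt spans chr5:34761740-34912534 in GRCm38. Hip1r (chr5:123973628-124005558) and Hip1 (chr5:135406531-135545120) lie on the same chromosome. Hap1 lies at chr11:100347327-100356128, Zdhhc17 at chr10:110941780-111010140, Sh3gl3 at chr7:82173840-82307419 and Rasd2 at chr8:75213944-75224113. Their longest coding transcripts run from 1647 bases (Sh3gl3) to 13215 bases (Htt).

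Libraries held between 32200158 and 38641924 estimated counts (median 35538941). Levels are given as CPM, a library-scaled count, after TMM normalization. Defining markers of medium spiny neurons were present in every library, and their summed level was 5590 to 7000 CPM (median 6300) in +/+ mice and 4020 to 4820 CPM (median 4430) in Q111/+ mice, with no overlap. Lower levels were called for 8 of these 9 markers and a higher level for Tac1. In whole tissue, fewer cells of a type and less RNA per cell cannot be told apart. Fewer markers of other cells were called, and each such call was lower in Q111/+: 2 of 5 for astrocytes, 2 of 5 for oligodendrocytes, 3 of 5 for microglia, 4 of 5 for endothelial cells, 0 of 5 for cortical excitatory neurons and 0 of 4 for choroid plexus. Over all genes tested, 39.8% were called in the same comparison, 21.8% higher and 18% lower. A single +/+ library had a choroid plexus sum of 1570 CPM against a +/+ median of 68.8. Sample titles carry a number after the letter L that the labels do not explain. L7 held 6 mice, all Q111/+ (3 on saline, 2 on control ASO, 1 on Htt ASO), and the other 5 numbers held both genotypes.

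The 7 transcripts differed widely in abundance. Levels per kilobase were taken over the longest coding transcript of each gene, and the lengths of the isoforms expressed were not used. On that measure Rasd2 was the most abundant in +/+ mice at 140 ± 11.3 CPM per kb (SD, n = 17), followed by Hap1 at 43.4 ± 3.7. Sh3gl3 (27 ± 1.16) and Zdhhc17 (23.9 ± 1.15) came next. Hip1 (12.8 ± 0.519) and Hip1r (12.5 ± 0.823) differed by less than their spread in +/+ mice, whereas in Q111/+ mice (n = 18) Hip1 was at 11.5 ± 0.784 and Hip1r at 13.6 ± 0.691. Htt was the lowest of the 7 per kilobase, at 6.68 ± 0.811 in +/+ and 5.7 ± 0.633 in Q111/+ mice. RSEM divides reads that fit several genes, so reads shared between the paralogs Hip1 and Hip1r, or among the endophilin genes, may be split with some error.

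**Figure D1:**
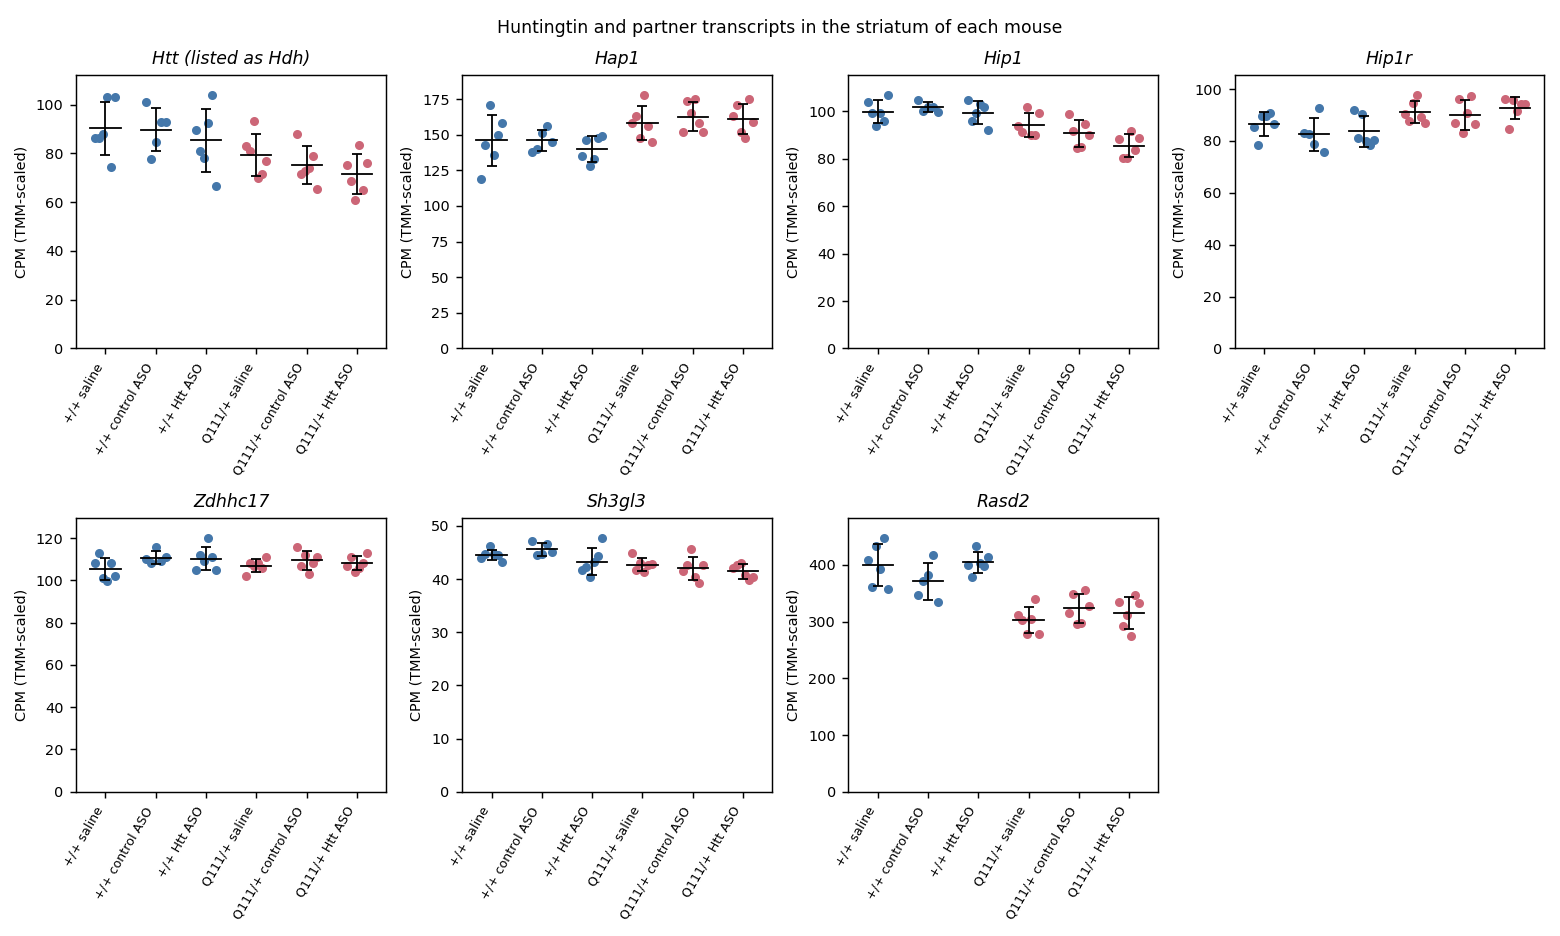
CPM after TMM scaling (y axis, from 0) of each of the 7 genes in each mouse (points), by group (x axis; blue +/+, red Q111/+), with the group mean and SD (black). Rasd2, Hip1 and Htt sit lower in Q111/+ mice and Hap1 and Hip1r higher, while Zdhhc17 stays between 99.6 and 120 CPM in both genotypes.

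The genotypes were first compared over the 3 treatments together, with 17 +/+ and 18 Q111/+ mice. Of the 7 genes, 6 passed the test (limma after voom, Benjamini-Hochberg adjusted p below 0.05 over all genes tested): Rasd2, Htt, Hip1 and Sh3gl3 were lower in Q111/+ mice, and Hap1 and Hip1r were higher. Zdhhc17 did not pass. The genotype comparison was broad, since 39.8% of all genes tested were called (21.8% higher and 18% lower). The median size of the log2 difference, regardless of sign, was 0.15 over the 7 genes and 0.089 over all genes tested.

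Rasd2, the striatum-enriched Rhes gene, had the largest difference of the 7. Its level fell from 393 ± 31.8 CPM (SD, n = 17) in +/+ mice to 314 ± 25.5 CPM (n = 18) in Q111/+ mice, a log2 difference of -0.32 (SE 0.037, limma adjusted p = 1.22e-08), which leaves 80.1% of the +/+ level. Individual +/+ mice ran from 335 to 447 CPM with a median of 397, and Q111/+ mice from 275 to 356 CPM with a median of 312. Every Q111/+ mouse was below the +/+ median, and 14 of 18 were below every +/+ mouse. The medium spiny neuron marker sum given above moved the same way, and its part in the Rasd2 difference was not tested. Among 2858 genes with transcripts within 1.2-fold of the length of Rasd2, 3.11% had a lower log2 genotype difference.

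Htt fell from 88.3 ± 10.7 CPM (SD, n = 17) to 75.3 ± 8.37 CPM (n = 18), a log2 difference of -0.23 (SE 0.055, limma adjusted p = 0.001) or a change of -14.7% (95% interval -21.1 to -7.83%). The +/+ mice ran from 66.6 to 104 CPM (median 88) and the Q111/+ mice from 60.9 to 93.1 CPM (median 74.8). The ranges overlapped widely, although 16 of 18 Q111/+ mice lay below the +/+ median. This spread ran along with a slope over many other genes of the same library. For 13200 other genes, the log2 level in each mouse was first taken relative to the gene's mean over the 35 mice. In each mouse these relative levels were regressed on transcript length and GC content. A slope is therefore relative to the other mice, and opposite signs of the genotype means follow from the centring. The length slope (the log2 change in relative level per doubling of length) averaged 0.012 ± 0.0262 (SD, n = 17) in +/+ and -0.0113 ± 0.0243 (n = 18) in Q111/+ mice. Deviations of Htt from its group mean followed that slope with r = 0.79 over the 35 mice, and Htt has a longer transcript than 99.1% of the tested genes with a known length. With the length slope as a covariate the genotype log2 difference of Htt was -0.10 (limma adjusted p = 0.0385), and with the length and GC slopes together it was -0.097 (limma adjusted p = 0.059), which no longer passed. The mean length slope itself differed between genotypes, so as a covariate it can take up part of a genotype difference. Whether the slope comes from genotype or from library preparation was not tested. Over the 211 genes with transcripts within 1.2-fold of the length of Htt, the median log2 genotype difference was -0.068, 31.8% were called lower, and 21.3% had a lower value than Htt.

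**Figure D2:**
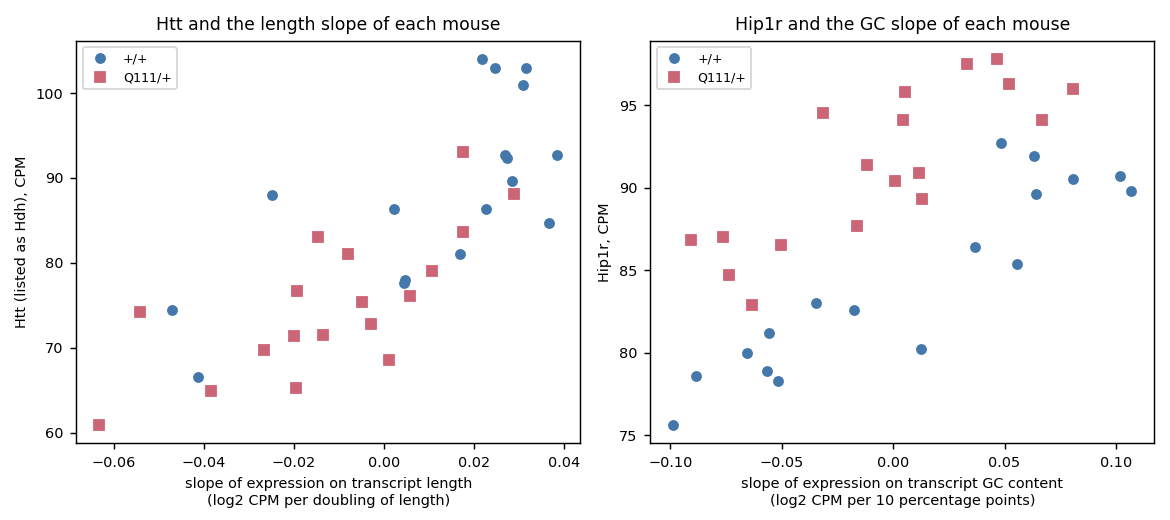
Left, CPM of Htt (y axis) against the slope of expression, relative to each gene's mean over all mice, on transcript length in each mouse (x axis, log2 CPM per doubling of length). Right, CPM of Hip1r against the slope on transcript GC content (log2 CPM per 10 percentage points); circles are the 17 +/+ and squares the 18 Q111/+ mice. Htt tends to be lower in mice with a lower length slope, and Hip1r climbs with the GC slope in both genotypes with the Q111/+ mice above.

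The 2 related endocytic adaptors moved in opposite directions. Hip1 fell from 100 ± 4.06 CPM (SD, n = 17) to 90.3 ± 6.14 CPM (n = 18), a log2 difference of -0.15 (SE 0.024, limma adjusted p = 3.7e-06). The +/+ mice lay between 92 and 107 CPM (median 100) and the Q111/+ mice between 80.5 and 102 CPM (median 90.1), so that 13 of 18 Q111/+ mice were below every +/+ mouse. Hip1, which also has a long transcript, followed the length slope with r = 0.71 within groups, and with both slopes as covariates its log2 difference was -0.098 (limma adjusted p = 0.000213). Hip1r rose from 84.4 ± 5.54 CPM (n = 17) to 91.3 ± 4.66 CPM (n = 18), a log2 difference of 0.12 (SE 0.028, limma adjusted p = 0.00123). Its +/+ range was 75.6 to 92.7 CPM (median 83) and its Q111/+ range 82.9 to 97.8 CPM (median 91.2), with 17 of 18 Q111/+ mice above the +/+ median. Hip1r ran along with the GC slope (r = 0.88 within groups, n = 35 mice), which averaged 0.0059 ± 0.0685 (SD) in +/+ and -0.00557 ± 0.051 in Q111/+ mice per 10 percentage points of GC. With both slopes in the model the Hip1r log2 difference was 0.15 (limma adjusted p = 1.21e-08), and with the title number as a covariate it was 0.074 (limma adjusted p = 0.00686).

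Hap1, the motor adaptor, rose from 144 ± 12.3 CPM (SD, n = 17) to 161 ± 10.4 CPM (n = 18), a log2 difference of 0.16 (SE 0.037, limma adjusted p = 0.000592). The +/+ mice ran from 119 to 171 CPM (median 145) and the Q111/+ mice from 145 to 178 CPM (median 159). The ranges overlapped, and 17 of 18 Q111/+ mice were above the +/+ median. Sh3gl3 had a small difference, from 44.4 ± 1.91 CPM to 42 ± 1.65 CPM (log2 difference -0.081, SE 0.02, limma adjusted p = 0.00139). Scaling to library totals without TMM, which moves the median log2 difference of all genes from 0.0037 to 0.043 and the share of calls that were higher from 54.7% to 72.1%, took Sh3gl3 to -0.042 (limma adjusted p = 0.0967). The palmitoyltransferase Zdhhc17 was at 109 ± 5.22 CPM in +/+ and 108 ± 3.6 CPM in Q111/+ mice. Its genotype difference was -0.363% with a 95% interval of -3.06 to 2.41% (limma adjusted p = 0.857).

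Within each of the 5 title numbers that held both genotypes, the mean log2 difference had the same direction for the 6 called genes. It ran from -0.40 to -0.13 for Htt, from -0.24 to -0.092 for Hip1, from -0.098 to -0.021 for Sh3gl3 and from -0.40 to -0.29 for Rasd2. For the higher genes it ran from 0.065 to 0.20 (Hap1) and from 0.016 to 0.15 (Hip1r). Zdhhc17 was higher in 4 of the numbers and lower in 1.

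The genotype difference was then taken separately on each treatment. On saline only Rasd2 was called (17.4% of all genes tested), at 400 ± 36.9 CPM (SD, n = 6) in +/+ and 303 ± 23.3 CPM (n = 6) in Q111/+ mice. The values were 408, 361, 433, 393, 447 and 357 CPM in +/+ and 312, 303, 278, 305, 340 and 278 CPM in Q111/+ mice. No Q111/+ value reached the lowest +/+ value, and the log2 difference was -0.40 (SE 0.063, limma adjusted p = 1.45e-05). How many of all genes tested lay without overlap between genotypes was not counted, here or on the other treatments. Rasd2 followed the GC slope with r = 0.70 within groups (n = 35 mice). With that slope in the model its log2 difference was -0.31 on saline (limma adjusted p = 1.69e-05). On the other treatments it was then -0.225 with control ASO (limma adjusted p = 0.000901) and -0.385 with Htt ASO (limma adjusted p = 9.45e-08). Hip1r on saline was at 0.072 (limma adjusted p = 0.354), and at 0.16 (limma adjusted p = 6.25e-05) once the GC slope entered the model. With both slopes Sh3gl3 on saline also passed (log2 difference -0.10, limma adjusted p = 0.0413). Mean GC slopes were 0.0522 in +/+ and -0.0131 in Q111/+ mice on saline.

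Among mice on control ASO, Hip1, Sh3gl3 and Rasd2 were lower in Q111/+ (18.5% of all genes tested were called). Hip1 was at 105, 100, 102, 102 and 99.7 CPM in the 5 +/+ mice and at 99.1, 91.6, 84.7, 84.8, 94.5 and 90.1 CPM in the 6 Q111/+ mice. The genotypes did not overlap, and the log2 difference was -0.17 (SE 0.043, limma adjusted p = 0.00602), or -0.092 (limma adjusted p = 0.0532) with both slopes in the model. Sh3gl3 differed by -0.12 (SE 0.036, limma adjusted p = 0.0172) and Rasd2 by -0.20 (SE 0.066, limma adjusted p = 0.0352), both with overlap between genotypes. Leaving out the L7 mice, 2 of which were in the Q111/+ group, left only Hip1 called, with Sh3gl3 at -0.082 (limma adjusted p = 0.202) and Rasd2 at -0.20 (limma adjusted p = 0.0791). The Rasd2 call was also lost without any 1 of 6 mice (+/+ replicates 2, 3 and 4 and Q111/+ replicates 1, 3 and 4), with adjusted p up to 0.123, and the Sh3gl3 call without +/+ replicate 1 (0.0524) or Q111/+ replicate 5 (0.0547). The Sh3gl3 call was further lost with library totals, with the title number as a covariate and in a fit of these groups alone (adjusted p from 0.0641 to 0.0875). Hip1r was at 0.128 and did not pass (limma adjusted p = 0.0784). It was at 0.10 with the GC slope (limma adjusted p = 0.00727) and at 0.122 with both slopes (limma adjusted p = 0.00162). Hip1r was called in 4 of 14 other settings, and without +/+ replicate 4 (0.0183) or Q111/+ replicate 3 (0.0397).

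Mice on Htt ASO had 4 of the 7 genes called by genotype (21.2% of all genes tested). Hap1 was higher, at 140 ± 8.83 CPM (SD, n = 6) in +/+ and 161 ± 10.5 CPM (n = 6) in Q111/+ mice, with a log2 difference of 0.21 (SE 0.062, limma adjusted p = 0.0138). Hip1 was at 105, 95.8, 99.2, 103, 102 and 92 CPM in +/+ mice and at 88.3, 80.5, 80.5, 91.7, 83.9 and 88.7 CPM in Q111/+ mice. The genotypes did not overlap (log2 difference -0.22, SE 0.042, limma adjusted p = 0.000189). Rasd2 was likewise without overlap, at 379 to 434 CPM in +/+ and 275 to 347 CPM in Q111/+ mice (log2 difference -0.36, SE 0.063, limma adjusted p = 4.91e-05). Hip1r was higher by 0.15 (SE 0.048, limma adjusted p = 0.0243), a call lost without any 1 of 6 mice (+/+ replicates 2, 4, 5 and 6 and Q111/+ replicates 1 and 3), with adjusted p up to 0.077. That Hip1r call stood in 11 of 14 other settings: it was lost without the L7 mice (0.14, limma adjusted p = 0.0555), without the left hemistriatum and with the title number as a covariate (0.077, limma adjusted p = 0.107). Htt itself passed on none of the treatments with limma. Its log2 difference was -0.18 on saline (limma adjusted p = 0.189), -0.26 with control ASO (0.0665) and -0.25 with Htt ASO (0.0566). DESeq2 called it on control ASO (-0.26, DESeq2 adjusted p = 0.0424) and on Htt ASO (-0.26, DESeq2 adjusted p = 0.0296), and edgeR on Htt ASO (-0.25, edgeR adjusted p = 0.0494). Over 14 other settings it was called in 4 on control ASO and in 5 on Htt ASO, and with the length slope it was at -0.067 (limma adjusted p = 0.568) and -0.13 (limma adjusted p = 0.154). Leaving out the left hemistriatum, +/+ Htt ASO replicate 6, whose Htt level of 66.6 CPM was the lowest of the +/+ mice, gave -0.32 (limma adjusted p = 0.01) on Htt ASO. The removal of single other mice also brought Htt below 0.05: +/+ Htt ASO replicate 3, Q111/+ Htt ASO replicate 4, Q111/+ saline replicate 3 and +/+ saline replicate 5 on Htt ASO, with adjusted p from 0.0291 to 0.0496. On control ASO the same held without +/+ control ASO replicate 2, Q111/+ control ASO replicate 1, +/+ Htt ASO replicate 5 or 6, or +/+ saline replicate 5, with adjusted p from 0.0341 to 0.0485.

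**Figure D3:**
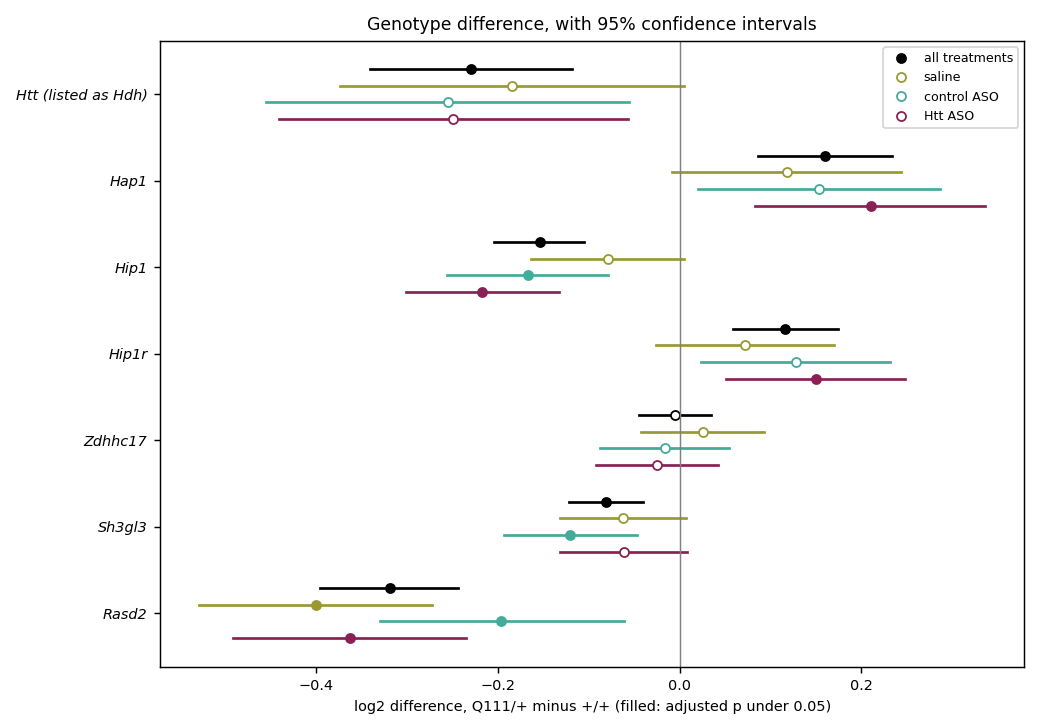
Log2 difference between Q111/+ and +/+ mice (x axis) with 95% confidence intervals for each gene (y axis), over all treatments (black) and within each treatment (coloured); filled points have an adjusted p below 0.05. Rasd2 is filled in each of the 4 comparisons, and Zdhhc17 is near 0 and open in each.

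Whether the genotype difference itself changed with treatment was tested by interaction. None of the 7 genes passed in any of the 3 interactions, in which 0 of 17639 genes were called by limma (percent called 0). At an unadjusted p below 0.05 there were 713 genes for Htt ASO against control ASO, 973 for Htt ASO against saline and 1169 for control ASO against saline. edgeR also called 0 genes in each, and DESeq2 called 1, in the last. Rasd2 had an interaction of 0.20 with control ASO against saline (limma adjusted p = 0.735), and Hip1 of -0.14 with Htt ASO against saline (limma adjusted p = 0.85). The treatment-specific calls above are therefore not shown to differ between treatments.

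The treatments were compared next, the question being whether ASO injections into the body cavity changed these transcripts in the striatum. Htt ASO against control ASO, over both genotypes, called 0 of the 7 genes (0.935% of all genes tested), and 0 of the 7 had an unadjusted p below 0.05. Htt was at 101, 77.6, 84.7, 92.7 and 92.7 CPM in +/+ mice on control ASO and at 89.6, 81.1, 78, 92.4, 104 and 66.6 CPM in +/+ mice on Htt ASO. In Q111/+ mice it was at 88.1, 71.5, 72.8, 74.2, 79.1 and 65.3 CPM on control ASO and at 75.4, 68.6, 60.9, 83.6, 64.9 and 76.1 CPM on Htt ASO. The treatments overlapped in both genotypes. The difference of Htt over both genotypes was -5.18%, with a 95% interval of -13.8 to 4.36% (limma adjusted p = 0.967). That interval, from 11 and 12 mice, includes 0 and falls of up to 13.8%.

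Within genotypes, 0 of the 7 genes were called in Q111/+ mice (0.357% of all genes tested) and 0 in +/+ mice (0.295%). In Q111/+ mice Hip1 was at -5.75% (limma adjusted p = 0.773), and in +/+ mice Sh3gl3 was at -5.18% (limma adjusted p = 0.924). edgeR and DESeq2 called 0 of the 7 in these 3 comparisons as well. Intervals were narrowest for Zdhhc17, whose difference over both genotypes lay between -4.05 and 2.69%.

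**Figure D4:**
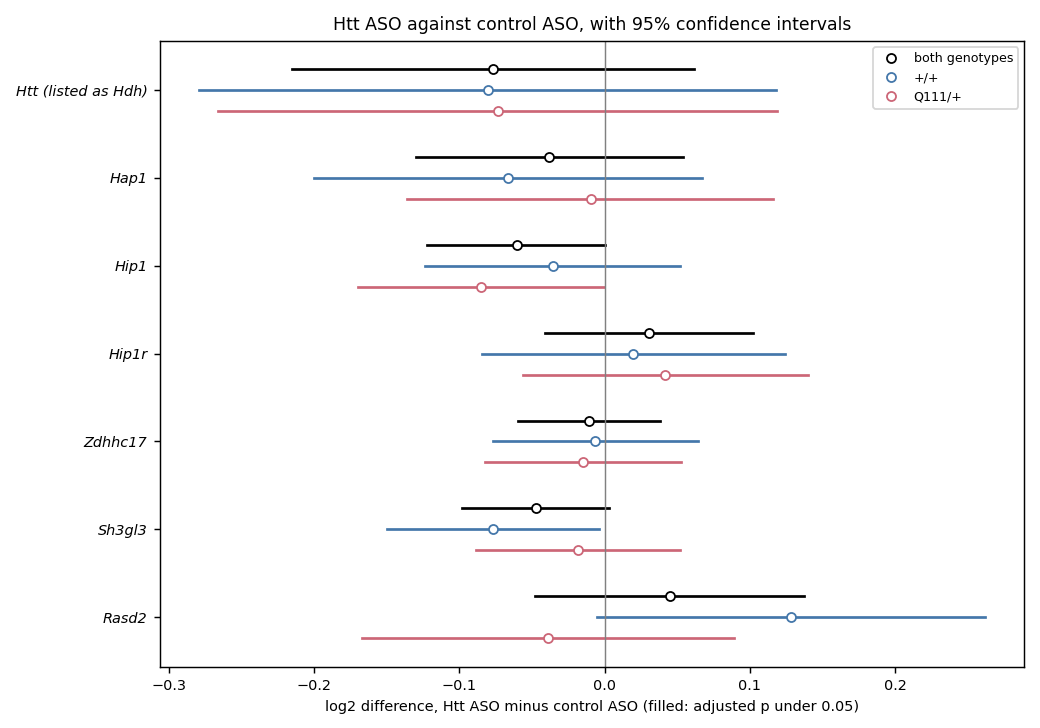
Log2 difference, Htt ASO minus control ASO (x axis), with 95% confidence intervals for each gene (y axis), over both genotypes (black), in +/+ mice (blue) and in Q111/+ mice (red). Every point is open (adjusted p above 0.05), and the intervals of Htt are the widest.

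Against saline, Htt ASO called 0 of the 7 genes (1.47% of all genes tested) and control ASO called 0 (0% of all genes, 0 by edgeR and by DESeq2, with 1357 at an unadjusted p below 0.05). These comparisons share the saline mice, and the former shares the Htt ASO mice with the comparison above. For Htt ASO against saline, the fitted difference of Hip1 was -5.03% (95% interval -8.87 to -1.02%, limma adjusted p = 0.36), and with the length slope in the model it passed (log2 difference -0.081, limma adjusted p = 0.0492). The difference of Htt was -7.75% in that comparison (95% interval -16 to 1.29%, limma adjusted p = 0.61). Its log2 difference was -0.132 with the length slope in the model (limma adjusted p = 0.133). With the length and GC slopes it was -0.13 (limma adjusted p = 0.15), and it passed in neither fit. For control ASO against saline, the difference of Zdhhc17 was 3.87% (95% interval 0.404 to 7.46%, limma adjusted p = 0.607).

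The 7 genes also differed in how much mice of the same group varied. Htt had a coefficient of variation of 12% within groups, against 1.86% from counting alone, and 96.7% of the 1075 genes of like level (within 1.2-fold in CPM) varied less. Rasd2 (7.89%) and Hap1 (7.71%) were next, Hip1r was at 5.93% and Hip1 at 4.97%. Sh3gl3 (3.95%) and Zdhhc17 (3.92%) varied least. Counting error was between 0.896% (Rasd2, 12458 counts on average) and 2.56% (Sh3gl3, 1531 counts) and lay below the spread between mice for each of the 7.

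Between members, Htt and Hip1 had the highest correlation across mice, r = 0.82 over the 35 mice and 0.70 for deviations from the group means. Hip1r and Rasd2, both of high GC content (57% and 55.6%), had r = 0.56 within groups, and Hap1 and Hip1 had -0.50. Hap1, of the highest GC content among the members (58.4%), had r = 0.089 with Hip1r and 0.20 with Rasd2 within groups. These libraries share the length and GC slopes described above, and correlations are given as descriptions.

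The genes most like each member over 15089 genes were found by correlation of log2 CPM across the 35 mice. Htt was most like Ep400 (r = 0.95), Odz4 (0.94) and Trrap (0.93), and within groups Huwe1 came first (0.97). EP400 and TRRAP are large proteins of a chromatin-remodelling and acetyltransferase complex, and HUWE1 is a giant ubiquitin ligase. The transcripts of these 4 genes are between 10685 and 14579 bases long, and each is longer than at least 97.7% of genes. Rasd2 was most like 2610204M08Rik (r = 0.96), Phyhip (0.96) and Mink1 (0.96), and within groups Mgat5b (0.93), Centg1 (0.92) and Plxnd1 (0.92). These 6 genes have transcripts of 58% to 63% GC and were called lower in Q111/+ mice.

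Hap1 was most like Baiap3 over all mice (r = 0.88) and within groups (0.80). Baiap3, which encodes a C2-domain protein of vesicle trafficking, rose with genotype by 0.30 on the log2 scale (limma adjusted p = 8.59e-05). Ly6h (r = 0.82) and Gprin1 (0.81) followed over all mice, and Rasal1 (0.77) and Wfs1 (0.76) within groups. Hip1r was most like Vars2 (0.90), Cenpb (0.88) and Klc1 (0.88), the last a kinesin light chain, and within groups like Fkbp8 (0.92) and Ckb (0.89). The transcripts of these genes ran from 56% GC (Klc1) to 63% GC (Fkbp8). Hip1 was most like Syne1 (0.87), 2610507B11Rik (0.87) and Oprd1 (0.84), and within groups like 2610507B11Rik (0.76), RP23-180B18.4 (0.76) and Zubr1 (0.74). Those of known length ran from 4021 bases (Oprd1) to 27908 bases (Syne1). Zdhhc17 was most like Gria2 (0.77), Galnt13 (0.76) and Dhx9 (0.76), and within groups like Psip1 (0.78), Galnt13 (0.77) and D14Ertd581e (0.76). Those of known GC content ran from 36.8% (Gria2) to 44.6% (Dhx9), and Zdhhc17 followed the GC slope with r = -0.58 within groups. Sh3gl3 had the loosest likeness, with Usp1 (0.74), Ubp1 (0.72) and BC050196 (0.68), and within groups Usp1 (0.64), Angptl2 (0.63) and Chn2 (0.62).

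Genes of the surrounding pathways were read from 5 lists against the same genotype comparison, in which 39.8% of all genes tested were called. Of 18 further huntingtin-binding proteins, 11 were called, 3 higher and 8 lower (median log2 difference -0.026, against 0.0037 over all genes). Git1, a scaffold of synapses and focal adhesions, fell from 294 ± 27.4 to 229 ± 17.6 CPM (-0.36, limma adjusted p = 2.87e-09). Zdhhc13, or HIP14-like, the closest relative of Zdhhc17, fell from 26.6 ± 1.27 to 23.3 ± 1.21 CPM (-0.19, limma adjusted p = 9.6e-08). Scaling by library totals gave 5 higher and 5 lower for this list, and its median became 0.013.

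Sgk1 (listed as Sgk), the kinase that phosphorylates huntingtin and responds to glucocorticoids, differed by genotype and by treatment. It was lower in Q111/+ mice, 317 ± 37.6 CPM (SD, n = 17) against 256 ± 41 CPM (n = 18), a log2 difference of -0.33 (SE 0.046, limma adjusted p = 6.86e-07). By treatment, the genotype difference was -0.18 on saline (limma adjusted p = 0.111) and did not pass. It was -0.36 on control ASO (limma adjusted p = 0.00214) and -0.43 on Htt ASO (limma adjusted p = 0.000108). No interaction of genotype with treatment passed for Sgk1. Sgk1 was also lower on Htt ASO than on control ASO over both genotypes (-0.34, SE 0.057, limma adjusted p = 0.000401), and was the only gene of the 5 lists called there. In +/+ mice it ranged from 334 to 373 CPM (median 349) on control ASO and from 255 to 331 CPM (median 281) on Htt ASO, and in Q111/+ mice from 253 to 312 CPM (median 268) and from 180 to 250 CPM (median 209). The treatments did not overlap in either genotype, in a comparison that called 0.935% of all genes tested. Sgk1 was named because it was called there, and how many of all genes tested lay without overlap between these treatments was not counted. Taken within genotypes the difference was -0.38 in Q111/+ mice (limma adjusted p = 0.0156) and -0.30 in +/+ mice (limma adjusted p = 0.183), and the interaction was -0.076 (SE 0.11, limma adjusted p = 0.999). Control ASO against saline was at 0.066 for Sgk1 (limma adjusted p = 0.788), and Htt ASO against saline at -0.27 (limma adjusted p = 0.00338). On saline Sgk1 ranged from 271 to 346 CPM in +/+ mice and from 238 to 337 CPM in Q111/+ mice. In both genotypes the saline range overlapped that on Htt ASO.

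Of 17 genes of HAP1 partners and microtubule transport, 11 were called, 7 higher and 4 lower (10 and 4 under library totals). Itpr1, the calcium release channel that HAP1 and huntingtin bind, fell from 1240 ± 105 to 869 ± 88 CPM (log2 difference -0.52, SE 0.045, limma adjusted p = 1.44e-11). Ahi1, a ciliary protein that forms a complex with HAP1, rose from 119 ± 18 to 185 ± 17.2 CPM (0.64, SE 0.057, limma adjusted p = 3.93e-11). Kalrn, a guanine nucleotide exchange factor first found through HAP1, fell from 355 ± 20.9 to 285 ± 17.3 CPM (-0.32, limma adjusted p = 8.72e-11).

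Clathrin endocytosis, where HIP1, HIP1R and SH3GL3 act, had 14 of 24 genes called, 10 higher and 4 lower, against 13 and 2 under library totals and 9 and 6 with RLE factors. The smallest p was that of Dnajc6, the neuronal auxilin that uncoats vesicles, at 215 ± 6.64 CPM in +/+ and 239 ± 5.77 CPM in Q111/+ mice (log2 difference 0.15, limma adjusted p = 1.09e-10). Cttn, the actin-binding cortactin that interacts with HIP1R, rose by 0.12 (limma adjusted p = 2.33e-08), and Snap91, the clathrin adaptor AP180, by 0.098 (limma adjusted p = 3.27e-07).

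Of 22 palmitoyltransferases and thioesterases, 11 were called, 8 higher and 3 lower, while Zdhhc17 was not. Besides Zdhhc13, the rule named Zdhhc2, which palmitoylates PSD-95, at 41.4 ± 3.39 and 48.7 ± 2.39 CPM (log2 difference 0.23, limma adjusted p = 2.22e-07), and Zdhhc15, at 6.06 ± 0.48 and 7.15 ± 0.528 CPM (0.24, limma adjusted p = 4.05e-06). Under library totals 14 of this list were higher and 3 lower. Of 16 genes around Rhes (its relative, SUMO and mTOR genes and G proteins), 14 were tested, 5 were higher and 2 lower, or 8 and 0 under library totals. Gnai1, an inhibitory G-protein subunit, rose by 0.16 (limma adjusted p = 1.69e-07), Acbd3, a Golgi protein that binds Rhes, by 0.12 (limma adjusted p = 0.000117), and Gnb1 by 0.060 (limma adjusted p = 0.000103). Without the L7 mice, or with the title number as a covariate, 4 of this list were called in place of 7.

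**Figure D5:**
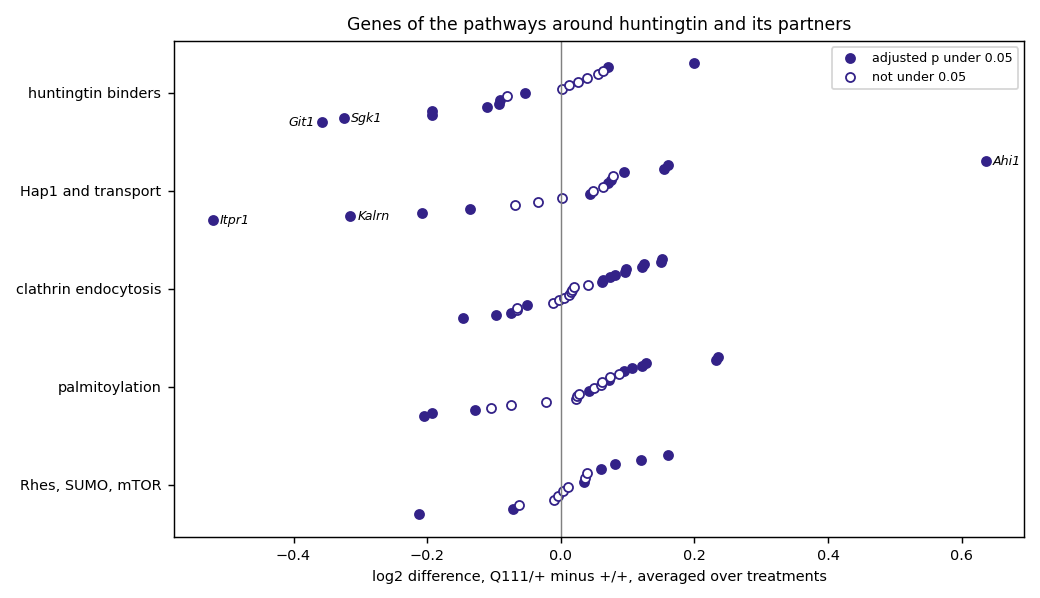
Log2 difference between Q111/+ and +/+ mice averaged over treatments (x axis) for the tested genes (points) of 5 gene lists (y axis), 1 of the huntingtin binders not shown; filled points have an adjusted p below 0.05, and genes beyond 0.3 in size are named. Most points lie within 0.2 of 0, with Ahi1 and Itpr1 farthest out.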

How the data were processed

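Expected counts per gene were deposited by the authors, who aligned paired reads of a stranded poly(A) library with Bowtie 0.12.9 and estimated counts with RSEM 1.1.18 on the mouse genome build mm9. Of the deposited values 55.6% were whole. Groups were taken from the labels, with ASO1 read as the Htt ASO. The main test was limma 3.58.1 after voom with TMM factors (edgeR 4.0.16, R 4.3.3), filterByExpr (minimum count 10), a mean per group and Benjamini-Hochberg adjustment over 17639 genes at 0.05. Alternatives were edgeR quasi-likelihood and DESeq2 1.42.0 on rounded counts, other scalings, filters, weights and covariates, and each mouse left out. Slopes on transcript length and GC (GENCODE transcripts, GRCm38, 83.5% of genes matched) and the fit without L7 were added after seeing the data. Coordinates and the sequence are from GRCm38 and were not converted from mm9. Genes and lists were chosen with earlier results of these data known. Named from each list were the 3 called genes of smallest genotype p and any called for Htt ASO against control ASO, and for each member the 3 genes of highest correlation (mean of at least 1 CPM, prior count 2). A list gene that this rule names is not reported here. Pairs of mice of 1 group were compared by chi-square over genes, and none of the 85 pairs was a duplicate (chi-square per degree of freedom from 3.49 to 15.8). The fitting code was tested on simulated counts drawn without length slopes, GC slopes or effects of the title number, so that test does not bear on those settings.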

Additional observations from a re-analysis of the deposited data

How the results depend on the processing

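Directions of the 6 called genotype differences held under all 13 other settings and without each of the 35 mice; the call was lost for Htt with the length and GC slopes (-0.0965, adjusted p = 0.059) and for Sh3gl3 with library totals (-0.0424, adjusted p = 0.0967). The uncalled Zdhhc17 difference changed sign in 6 fits. Without single mice Htt ran from -0.256 to -0.213 and Rasd2 from -0.333 to -0.305. Members called by genotype on saline went from 1 to 2 with the GC slope and to 3 with both slopes, on control ASO from 3 to 1 without the L7 mice, and for Htt ASO against saline from 0 to 1 with the length slope. Palmitoylation genes called went from 11 to 17 with library totals, and Rhes list genes from 7 to 4 with the title number as a covariate and to 4 without the L7 mice. Leaving out single mice gave 2 to 4 members called on control ASO and 3 to 5 on Htt ASO. With the title number as a covariate Hip1r went from 0.116 to 0.0743. The cause of these changes was not tested. No paired analysis was possible because the labels give no replicate numbers shared between groups; the title number was fitted as a covariate instead, and letters that mouse names share, which the labels do not explain, were not used as a replicate block. Counting error of Htt (1.86%) was below its spread within groups (12%).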
